A study of Mus musculus with 35 samples.

Results

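The regions compared here are stretches of open chromatin that were called in haematopoietic stem cells (HSCs) of fetal or of adult mice. They were mapped by ATAC-seq: Tn5 transposase cuts accessible DNA and leaves sequencing adapters there. Fetal HSCs were taken at E16.5, late in gestation (3 libraries), and adult HSCs at 8 weeks of age (5 libraries, titled WT). Both groups were on a B6 background and carried no other allele or treatment that the labels name. Touching or overlapping peaks were merged into regions on chromosomes 1 to 19 and X, which gave 90968 regions in the fetal and 89431 in the adult list, 180399 of the 891747 regions in all 12 lists of the series. A region was shared when a region of the other list overlapped it by at least 1 bp, and otherwise it was fetal-only or adult-only. The 6 lists used beside them came from HSCs at postnatal day 14 (P14; 3 libraries) and from progenitors (HPCs) of E16.5 (3 libraries), P7 (3), P14 (2), P21 (2) and 8 weeks (3). For some regions 4 lists of P7 are given too: wild-type mice gave 3 HPC and 3 HSC libraries, and mice labelled Infnar_KO, for the type I interferon receptor Ifnar, gave 3 HPC and 2 HSC libraries. The title of 1 knockout HPC library carries the code letter of the wild-type libraries.

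Each group's libraries were pooled into 1 peak list, which leaves no spread between replicates and allows no test of fetal against adult cells (n = 1 list per group). For fetal and adult HSCs the sources used here do not give sort markers, sex, litters, animals per library or read depth. The number of libraries, 3 and 5, went with age, as did the strength of the lists: the −log10 p values, all of which are those of the authors' peak caller, had a median of 44.8 in the fetal and 83.0 in the adult list. These cannot be told apart from age. All 3 fetal HSC libraries name the fetal HSC list as their processed data. Of the 5 adult HSC libraries 2 name the adult HSC list, 2 name that of P14 HPCs and 1 that of P21 HPCs, while all 3 libraries of P14 HSCs name the adult HSC list. Of the 3 fetal HPC libraries 1 names the P21 HPC list, and 1 of the 3 P7 HPC libraries names the fetal HPC list. Lists were assigned by the group name each one carries, every adult value rests on that name, and none could be recomputed without the libraries in question.

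HSCs sustain all blood lineages. In the fetus they reside mainly in the liver and divide often, whereas in the adult they reside in the bone marrow and are mostly quiescent. The change between the states involves RNA-binding proteins of the Lin28b and Igf2bp family on the fetal side. It also involves the let-7 microRNAs, whose maturation Lin28b blocks. In mice the change extends over the weeks around and after birth. Open regions mark promoters, where transcription starts, and distal elements such as enhancers, which are usually more specific to a cell state than promoters. Absence from a list means that the peak caller made no call, and the chromatin need not be closed.

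Promoters at leading list-specific regions by named genes (symbols of the Gm and Rik type left out) are shown first, as 300 bases from 250 before to 50 after a RefSeq start site (GRCm38.p6, the gene's own strand, 5′ to 3′). Glra3 encodes a subunit of the glycine receptor (chr8:55940168-55940467, plus strand), Gabrg1 a subunit of the GABA receptor (chr5:70842568-70842867, minus strand) and Galnt17 a member of the GalNAc-transferase family of O-glycosylation enzymes (chr5:131307473-131307772, minus strand). Capitals in these 3 fetal-side sequences mark CG, the dinucleotide that DNA methylation acts on in mammals.
Glra3: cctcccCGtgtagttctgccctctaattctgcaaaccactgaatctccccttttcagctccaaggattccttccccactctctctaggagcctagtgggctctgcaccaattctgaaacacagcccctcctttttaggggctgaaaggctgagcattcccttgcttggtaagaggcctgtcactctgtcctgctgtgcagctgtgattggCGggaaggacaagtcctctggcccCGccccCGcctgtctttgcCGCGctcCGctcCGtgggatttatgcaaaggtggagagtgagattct
Gabrg1: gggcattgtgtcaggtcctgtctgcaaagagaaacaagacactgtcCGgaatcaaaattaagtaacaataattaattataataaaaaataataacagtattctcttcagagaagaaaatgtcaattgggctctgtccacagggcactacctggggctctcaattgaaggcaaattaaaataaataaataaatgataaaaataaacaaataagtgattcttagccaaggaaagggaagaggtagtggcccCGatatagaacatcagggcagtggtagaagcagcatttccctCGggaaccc
Galnt17: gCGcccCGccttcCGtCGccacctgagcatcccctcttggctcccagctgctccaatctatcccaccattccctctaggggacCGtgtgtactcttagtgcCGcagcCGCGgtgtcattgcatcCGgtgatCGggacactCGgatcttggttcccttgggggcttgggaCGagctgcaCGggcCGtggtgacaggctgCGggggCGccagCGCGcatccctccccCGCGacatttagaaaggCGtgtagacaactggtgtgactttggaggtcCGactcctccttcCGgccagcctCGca
The Glra3 window held 8 CG, the Gabrg1 window 3 and the Galnt17 window 24. Their GC contents were 56.0, 38.3 and 64.3%, so the 3 windows shared no one base composition.

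On the adult side the leading promoter was that of Fam180a (chr6:35326092-35326391, minus strand), shown with its match to the AP-1 motif TGANTCA in capitals. Oas3, an enzyme of the antiviral response that interferon induces (chr5:120777610-120777909, minus strand), was chosen after its values were seen and is shown with its match to the IRF motif in capitals. That motif is GAAA, any 2 bases and GAAA again, searched on both strands.
Fam180a: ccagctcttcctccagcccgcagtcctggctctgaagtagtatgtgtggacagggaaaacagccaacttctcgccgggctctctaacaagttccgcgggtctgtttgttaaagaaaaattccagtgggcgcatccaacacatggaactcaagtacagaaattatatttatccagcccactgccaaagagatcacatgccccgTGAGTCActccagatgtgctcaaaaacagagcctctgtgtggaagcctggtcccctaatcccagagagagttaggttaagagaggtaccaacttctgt
Oas3: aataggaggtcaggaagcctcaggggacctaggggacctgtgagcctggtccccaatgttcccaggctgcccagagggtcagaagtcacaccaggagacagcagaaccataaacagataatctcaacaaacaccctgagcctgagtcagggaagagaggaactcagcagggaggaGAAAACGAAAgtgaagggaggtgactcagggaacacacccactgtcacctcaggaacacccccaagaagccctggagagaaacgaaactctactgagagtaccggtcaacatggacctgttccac
A match is a description of these letters and not a bound site. The shares of all promoters that hold each motif are given with the promoter results.

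Most open regions were common to fetal and adult HSCs. Of the 90968 fetal regions 20417 (22.4%) were fetal-only, and of the 89431 adult regions 18813 (21.04%) were adult-only. Regions in the upper 50% of their list by −log10 p are termed strong below, and this limit removed most of the list-specific regions. Among strong regions 1556 of 45484 (3.42%; 95% interval 3.26 to 3.59) were fetal-only and 2024 of 44716 (4.53%; 4.34 to 4.72) were adult-only. All intervals are exact Clopper-Pearson ones at 95% and describe no error but that of counting. The weakest strong fetal-only region had a −log10 p of 44.79 and the strongest below the limit 44.77. For adult-only regions the corresponding values were 83.1 and 83.0.

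The list-specific share was lower the stronger a region was in its own list. In fetal HSCs it was 68.0% in the weakest of 10 equal classes of −log10 p, 9.44% in the sixth class and 0.055% (5 regions) in the strongest. In adult HSCs it was 63.7% in the weakest class, 10.8% in the sixth and 0.458% (41 regions) in the strongest. Regions that led their own list were thus almost always found at the other age as well, more so from the fetal side than from the adult side.

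**Figure D1:**
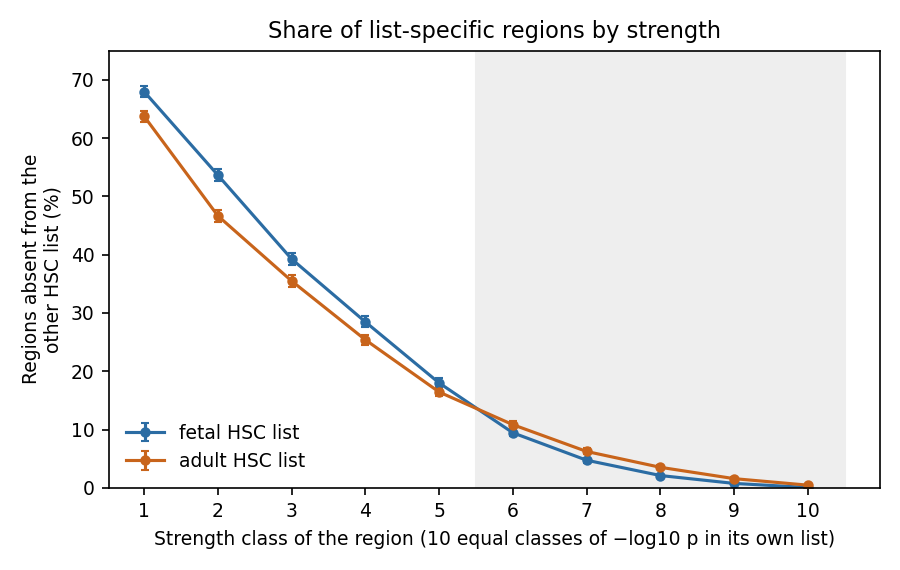
Share of regions absent from the other HSC list (vertical axis, percent) in 10 equal classes of each list's own −log10 p (horizontal axis, weakest to strongest), for fetal and adult HSCs, with 95% intervals for counting error. Grey shading marks the upper 50% called strong; the share falls from 68.0 and 63.7% in the weakest class to 0.055 and 0.458% in the strongest.

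Both lists carried the promoters of stem cell genes. Of 22 HSC transcription factor genes with a promoter window, 20 were called in both lists, and so were 18 of 19 genes of HSC surface and niche proteins, beside 64.5% (fetal) and 64.0% (adult) of all 17273 genes with a window. Of 10 hepatocyte genes 2 were called in fetal HSCs, Foxa1 (19.3) and Foxa2 (36.1). In adult HSCs 3 were called, Foxa1 (64.8), Foxa2 (251) and Apob (28.8). The promoters of Alb, Afp, Apoa1, Hnf4a, Fgb, Serpina1a and Cyp3a11 were called in neither. A strong fetal-only region lay outside Afp (46.0), also called in fetal HPCs at 32.6 and in all postnatal HPC lists. B cell genes had 0 and 2 of 5 promoters called, T cell genes 3 and 2 of 7, macrophage genes 2 and 2 of 7, and neuron genes 6 and 5 of 8. The macrophage genes Timd4 (213) and Mertk (129) had a strong adult-only region and Marco (112) a fetal-only one. Endothelial genes had 5 of 6 promoters called at both ages and stromal genes 3 of 7. The part of other cells in the results was not tested.

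Strong list-specific regions lay far from promoters, and fetal-only ones farthest. Within 1 kb of a RefSeq start site lay 2.59% of fetal-only regions (39 of 1507 with a start site table) and 1.86% of adult-only regions (36 of 1931), against 24.2 and 24.3% of shared strong regions of the fetal and the adult list. More than 100 kb from any start site lay 51.8% of fetal-only regions (49.2 to 54.3), 36.5% of adult-only regions (34.3 to 38.6), and 24.0 and 24.3% of shared ones. The median distance was 108 kb for fetal-only and 57.7 kb for adult-only regions, and 24.1 and 24.9 kb for shared regions. In the 3 strongest of the 10 classes alone the shares beyond 100 kb were 63.0% for fetal-only, 39.0% for adult-only and 22.2 and 23.0% for shared regions. The interval of the fetal-only share did not overlap that of the adult-only share.

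Fetal-only regions were also remote from any open region of adult HSCs, and few adult-only regions were as remote from fetal ones. The median gap between a strong fetal-only region and the nearest adult HSC region of any strength was 20.9 kb, and that between an adult-only region and the nearest fetal HSC region was 6.58 kb. The gap was above 100 kb for 322 fetal-only regions (20.7%; 18.7 to 22.8) and for 10 adult-only regions (0.494%; 0.237 to 0.907). It was at most 250 bp for 19 fetal-only and 62 adult-only regions, in which the boundary of a called region could decide the class. Gene bodies held 44.1% of fetal-only, 51.5% of adult-only and 63.3 to 63.6% of shared regions. Genes longer than 500 kb held 9.90% of fetal-only regions (8.46 to 11.5), 5.98% of adult-only regions (4.99 to 7.10) and 4.49 to 4.56% of shared ones.

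**Figure D2:**
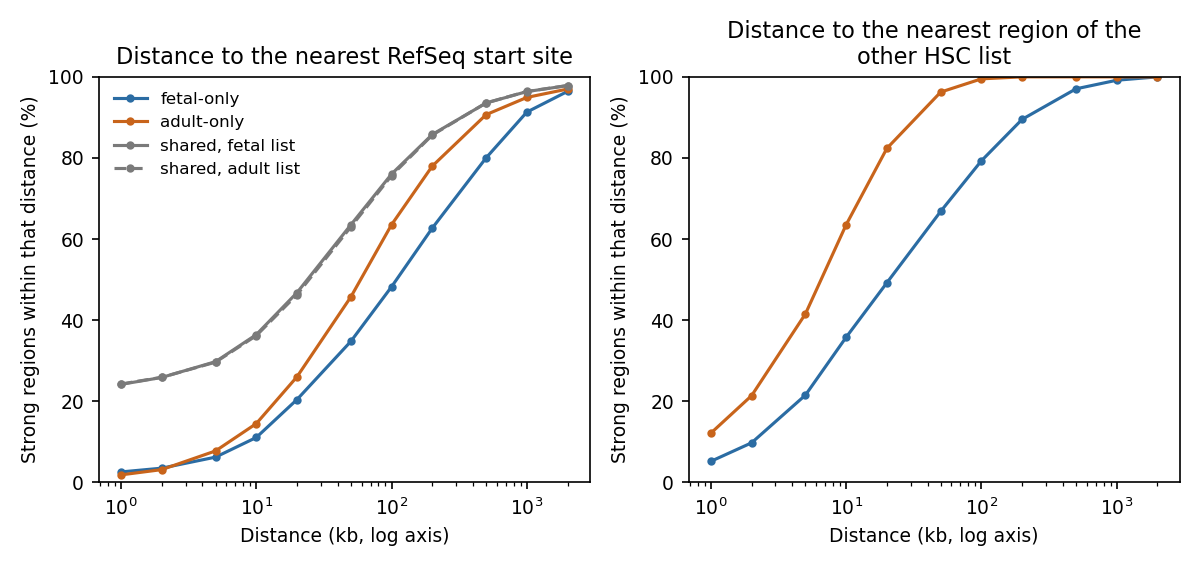
Cumulative share of strong regions (vertical axes, percent) within a given distance (horizontal axes, kb, log scale) of the nearest RefSeq start site (left) and of the nearest region of the other HSC list (right). Beyond 5 kb the fetal-only curve runs lowest in both panels; 20.7% of fetal-only and 0.494% of adult-only regions lie more than 100 kb from the other list.

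The 322 remote fetal-only regions, a group split off after the gaps were seen, were called at other ages less often than the rest. Fetal HPCs had 87.9% of them (83.8 to 91.2), and HPCs of P7, P14, P21 and 8 weeks had 34.5, 28.9, 7.76 and 19.9%. P14 HSCs had 9 of them (2.80%; 1.29 to 5.24). Of the 1234 fetal-only regions within 100 kb of an adult HSC region, fetal HPCs had 82.6%, the 4 later HPC lists had 57.6, 61.2, 36.1 and 51.1% in the same order, and P14 HSCs had 42.2%. None of the 5 postnatal lists besides adult HSCs held 178 of the remote regions (55.3%; 49.7 to 60.8) and 238 of the nearer ones (19.3%; 17.1 to 21.6). Among these lists the remote regions were thus found most often in that of the other fetal cell type.

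Most of the strongest list-specific regions of either age had no gene end near them. Of the 15 fetal-only regions of highest −log10 p, 12 had no protein-coding gene end within 50 kb, among them the strongest (chr2:144900500-144901160, −log10 p 300). Some of these lay inside a long gene, in Ptprt (197) and Nell1 (196). Most of the 15 adult-only regions of highest −log10 p likewise had no gene end within 50 kb, for example one on chromosome 5 (1847). A region 27.9 kb beyond the end of Cdh8, a cadherin of cell-cell adhesion (chr8:98995669-98996559), reached 298 in fetal HSCs and 98.8 in fetal HPCs and was called in no other of the 12 lists. The nearest region of adult HSCs lay 1246 kb away. A region in Cntnap5a, a contactin-associated adhesion gene (chr1:115684476-115685112), reached 255 in fetal HSCs, 289 in fetal HPCs, and 31.6, 30.6 and 22.9 in HPCs of P7, P14 and 8 weeks. It was called in no list of postnatal HSCs.

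The fetal-side promoters printed above were called in both fetal lists. The region over the Glra3 start site (chr8:55940098-55941091) reached 192 in fetal HSCs and 231 in fetal HPCs, and 20.8, 34.5 and 16.4 in HPCs of P7, P14 and 8 weeks. The region that begins 0.236 kb upstream of the Gabrg1 start (chr5:70842853-70843674) reached 163 in fetal HSCs and 60.2 in fetal HPCs, and no postnatal list had it. The region 0.058 kb upstream of the Galnt17 start (chr5:131307580-131308179) reached 151 in fetal HSCs and 105 in fetal HPCs. It was called at 17.2 to 49.8 in the 4 postnatal HPC lists, and an adult HSC region lay 0.694 kb from it. Glra3 and Gabrg1 had no adult HSC region within 122 kb and 251 kb, so these promoters stood without a called neighbour in adult stem cells while the Galnt17 promoter did not.

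Other leading fetal-only regions differed in how far they extended into postnatal lists. The one 19.3 kb from Gucy1a2, a subunit of the nitric oxide receptor guanylate cyclase, reached 170 in fetal HSCs, 102 in fetal HPCs and 41.5 in P7 HPCs, and was absent later. The one 34.0 kb from Vmn2r78, a vomeronasal receptor gene (159), was likewise called in fetal HPCs (92.6) and P7 HPCs (12.3) alone, and those by Tfap2d, an AP-2 transcription factor gene (138), Rergl (143) and the urinary protein gene Mup5 (150) were called in fetal HPCs and in HPCs of P7, P14 or both, and in no other list. By contrast the regions near Prss23, a serine protease gene (173), Snph (161) and Rnf19a, a ubiquitin ligase gene (156), were called in all other lists and missing from adult HSCs alone. In Rnf19a the adult HPC value was 516. The region nearest Slc40a1, the iron exporter ferroportin (169), lay 41.8 kb from the gene and was called in all 6 other lists of ages and cell types, and the 3 fetal and 3 adult regions within 10 kb of Slc40a1 were all shared. The region in Osbpl8, a lipid transfer protein gene (142), was called in P14 HSCs (105) and in every list but those of adult HSCs and adult HPCs.

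**Figure D3:**
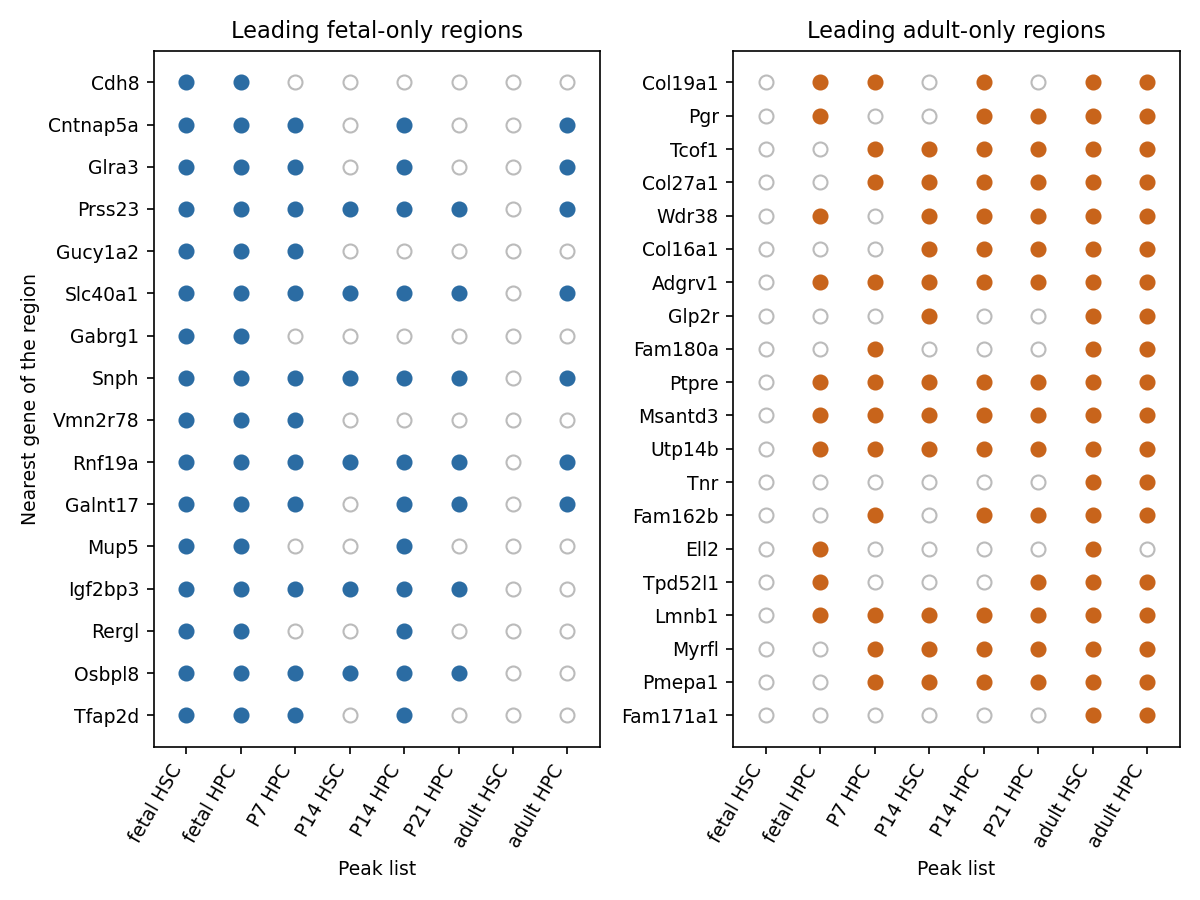
Calls of 16 leading fetal-only and 20 leading adult-only regions (rows, labelled by nearest gene) in the 8 lists of fetal to adult HSCs and HPCs (columns); filled circles stand for called and open circles for not called. The Cdh8 and Gabrg1 regions are filled in the 2 fetal lists alone, whereas the Rnf19a region is open in adult HSCs alone.

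Among regulators of the fetal stem cell state, Igf2bp3, an mRNA-binding protein gene that acts with Lin28b, had a fetal-only region near its start. Its promoter window itself was called in neither HSC list. The region overlapped the 5′ end of the annotated gene, 0.376 kb upstream of the nearest start in the promoter table (chr6:49215330-49215769), and had a −log10 p of 135 in fetal HSCs, 131 in P14 HSCs and 119 in fetal HPCs. HPCs of P7, P14 and P21 had it at 51.3, 52.7 and 44.7, and the 4 lists of P7 HSCs and HPCs with or without the interferon receptor Ifnar, whose lowest −log10 p was about 2 against about 1 in the other lists, had it at 68.4 to 137. Adult HSCs and adult HPCs were the only 2 of the 12 lists without it. The nearest adult HSC region, a weak adult-only one (chr6:49213755-49214406, 15.7), lay 0.924 kb from it. The next region upstream was shared (chr6:49217736-49218342) and had values of 419 in fetal HSCs and 788 in P14 HSCs, and of 47.8 in adult HSCs and 41.6 in adult HPCs, both below the limit for strong regions of their lists. Values of different lists are set by their own depth and are given side by side without a comparison of size.

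The other fetal regulators gave less. Over the 14 genes of that list 1 strong region was fetal-only (Igf2bp3) and 1 adult-only, in Arid3a, a transcription factor gene of the B lineage (chr10:79936844-79937534; 173 in adult HSCs, 141 in adult HPCs and 71.5 in P14 HSCs, not called in fetal HPCs). With weaker regions counted, 26 were fetal-only and 14 adult-only (23.1 and 12.4% of regions, beside 15.2 and 15.1% over all protein-coding genes). Lin28b, the RNA-binding protein that blocks let-7 maturation, had 7 fetal and 6 adult regions, of which 2 weak ones were fetal-only (18.6 and 38.0; also called in fetal HPCs, and in neither P14 HSCs nor adult HPCs) and 1 weak one adult-only (43.7). Hmga2, a chromatin protein gene under let-7 control, had 16 fetal and 15 adult regions, and Igf2bp2 had 9 and 10; neither had a strong list-specific one. Of the let-7 hairpin genes none had a strong list-specific region within 10 kb at either age.

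Adult-only regions were led by one of 236 bp nearest the collagen gene Col19a1 (chr1:24612999-24613234), which stood apart from the rest with a −log10 p of 4803. It was called in fetal HPCs (3906), P14 HPCs (2648) and adult HPCs (4195), was at 10.1 in P7 HPCs, and was missing from P14 HSCs and P21 HPCs, so its calls followed neither age nor cell type. Whether reads can be placed uniquely in it was not tested. A region 3.28 kb from the progesterone receptor gene Pgr (chr9:8895081-8895621) reached 834 in adult HSCs and 676 in adult HPCs. It was at 15.9 to 23.2 in fetal, P14 and P21 HPCs and not called in P14 HSCs or P7 HPCs. The promoter of Pgr went the other way, with a window overlapped by a region of fetal HSCs (147) and by none of adult HSCs. All 4 fetal HSC regions within 10 kb of Pgr were nevertheless shared. The region over the Fam180a start (chr6:35326052-35326688) reached 557 in adult HSCs and 283 in adult HPCs, was at 7.07 in P7 HPCs, and was called in no other list.

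Several leading adult-only regions were called in both adult lists and not in fetal HPCs. Among them were those in Col27a1 (chr4:63302431-63303087, 701) and Col16a1 (584), collagen genes of the extracellular matrix, in Gas7 and nearest Glp2r, a gut hormone receptor gene (563), near Myrfl (489) and Fam171a1 (473), and in Pmepa1, an inhibitor of TGF-beta signalling (487). The Fam171a1 and Fam180a regions were missing from P14 HSCs, whereas P14 HSCs had those of Col27a1 (203), Col16a1 (144), Pmepa1 (105), Myrfl (32.8) and Glp2r (18.5). At gene ends adult-only regions followed Fam180a at Tnr, an extracellular matrix gene of the nervous system (367), Fam162b (320), Ell2, a transcription elongation factor gene (314), Tpd52l1 (279) and Lmnb1, the nuclear lamin B1 gene (267). Of these, fetal HPCs had the regions at Ell2 (133), Tpd52l1 (31.4) and Lmnb1 (72.5). Other leading regions in Ptpre, a tyrosine phosphatase gene (549), Msantd3 (513), near Utp14b (498), Wdr38 (600) and Adgrv1, an adhesion receptor gene (579), were called in fetal HPCs at 7.63 to 94.4.

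Over all protein-coding genes with 10 kb on either side, 816 of 21627 genes (3.77%) had a strong fetal-only region and 1238 (5.72%) a strong adult-only region. As a share of all strong regions in those windows, 2.06% were fetal-only and 3.12% adult-only, and the gene lists that follow are set beside these values. In these shares, and in counts and shares of gene lists, families and length classes, a region near several genes counts once for each, unless said otherwise. The lists were chosen with results of these data known, and each is a count with no test.

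Among strong regions, HSC transcription factor genes had an adult-only share near that of all genes and a lower fetal-only share. Of 30 genes 6 had a strong adult-only region and 1 a fetal-only region (3.88 and 0.647% of strong regions, beside 3.12 and 2.06% over all genes). With regions of any strength 103 were adult-only and 43 fetal-only (24.5 and 10.2%, beside 15.1 and 15.2% over all genes). The adult-only regions included those in Mecom (chr3:30233933-30234438, −log10 p 111), Msi2 (104), Fli1 (101) and Prdm16 (99.4) and near Meis1 (96.0), all regulators of stem cell maintenance. P14 HSCs had those of Mecom (57.5), Meis1 (78.8) and Fli1 (41.9), and not those of Msi2 and Prdm16. Adult HPCs had all of these named regions. The fetal-only region lay in Gata3 (62.6), which was also called in fetal HPCs (36.6) and adult HPCs (41.6).

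Counts over all strengths were larger in adult HSCs at Mecom, Meis1 and Hlf. Mecom had 35 fetal and 41 adult regions, Meis1 15 and 22, and Hlf, a transcription factor gene of HSC quiescence, 8 and 14, of which 6 were weak adult-only regions (23.1 to 67.3). Hoxa9 had 6 regions at both ages, all shared, and Hoxb5 had 4 and 5 with 1 weak adult-only region. Cdk6, a kinase gene of cell cycle entry, had 17 and 18, with 5 weak fetal-only and 6 weak adult-only regions. Among genes of HSC surface and niche proteins 1 strong region was list-specific, a fetal-only one in the cytokine receptor gene Flt3 (66.4), called in fetal HPCs (38.0) and P14 HSCs (43.0) and not in adult HPCs.

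Receptor genes of innate immunity and cytokines carried adult-only regions as well. Of 23 genes 5 had an adult-only region and 1 a fetal-only region (9.62 and 1.92% of strong regions). Adult-only regions lay by Tnfrsf1b, a TNF receptor gene (187), Il18r1 (113), Csf2rb, the common beta chain of the GM-CSF, IL-3 and IL-5 receptors (100.04), Csf1r, the M-CSF receptor gene (88.2), and Ifngr2, an interferon gamma receptor gene (84.4). Fetal HPCs had those of Tnfrsf1b, Il18r1, Csf2rb and Ifngr2 and not that of Csf1r, and P14 HSCs had all but that of Tnfrsf1b. The fetal-only region lay in Il1rl1, the IL-33 receptor gene (60.5).

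Myeloid and interferon genes had adult-only regions and no strong fetal-only ones. Of 20 myeloid genes 3 had one (9.38% of strong regions): Irf8 (117), Cebpb (111) and Csf1r, counted above. With all regions the myeloid count turned, to 22 fetal-only and 13 adult-only (26.0 and 15.4%, beside 15.2 and 15.1% over all genes). Of 26 interferon-stimulated genes 3 had one (5.66%), among them Ifi44 (154) and Oas3 (122). Neither of these regions was called in fetal HPCs. Within 50 kb the interferon list had 1 strong fetal-only and 11 strong adult-only regions (0.676 and 7.43%, beside 1.93 and 2.95% over all genes). Genes of antigen presentation had 1 adult-only region, in Tap2 and within 10 kb of Psmb8 (254), which fetal HPCs had at 108.

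The remaining blood lists were near the background or divided. Dntt, terminal transferase of early lymphoid cells, had 2 adult-only regions: one 6.32 kb upstream (86.7) that every HPC list had, and one in the gene (87.4) that only P14 HSCs and fetal HPCs also had, at 23.2 and 10.3. Tcf7, a transcription factor gene of T lineage cells, had the 1 fetal-only region of the lymphoid list (48.5). Pf4, a platelet chemokine gene, had the 1 list-specific region of the erythroid and megakaryocytic list, on the fetal side (72.4), 60 bp from an adult region. Nuclear receptor genes were divided, with fetal-only regions by Nr3c1, Thrb and Vdr and adult-only regions by Pgr, Nr3c2 (159) and Thra (145). Genes of metabolism and iron had 3 adult-only regions, in Aldh1a1, a retinaldehyde dehydrogenase gene (225), in Ppargc1a, a regulator of mitochondrial biogenesis (137), and near Cat, the catalase gene (91.1), and no fetal-only one. Chromatin modifiers had 2 adult-only regions, in the DNA methyltransferase gene Dnmt3a (154) and in Tet1 (85.2), and no fetal-only one.

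**Figure D4:**
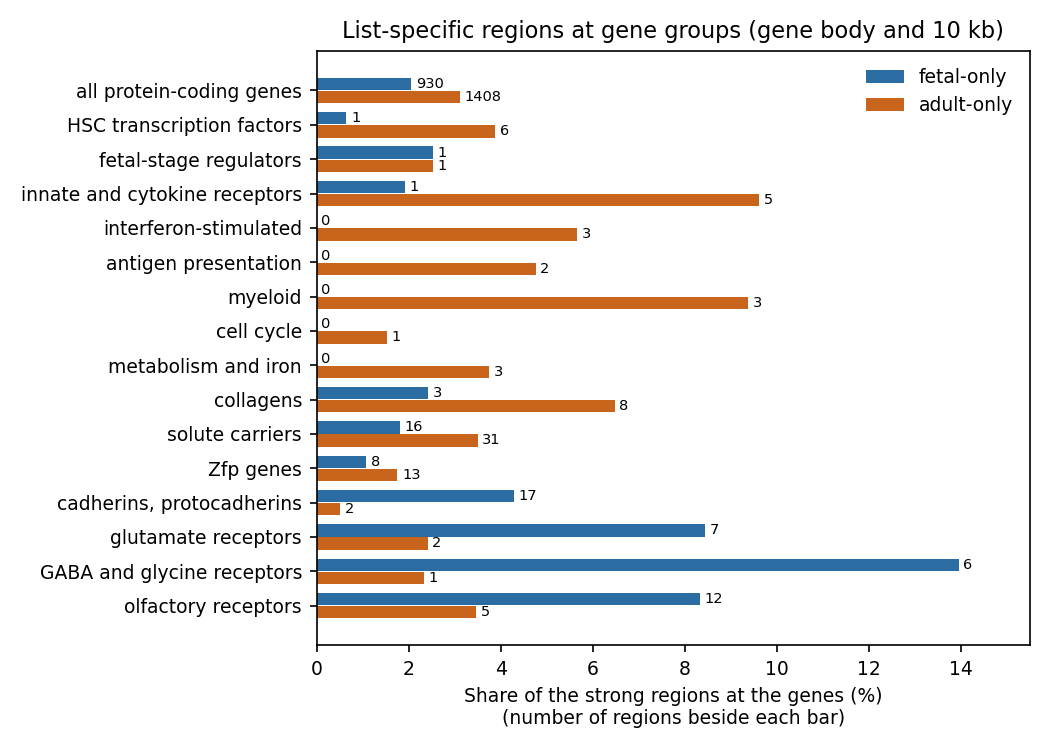
Fetal-only and adult-only regions as a share of the strong regions within 10 kb of the genes of each group (horizontal axis, percent), with the counts beside the bars. A region near several genes of a group counts once for each. The receptor families of neurons and the cadherins have longer fetal bars, and the innate receptor, myeloid and HSC transcription factor lists longer adult bars, beside 2.06 and 3.12% over all genes.

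Gene families of the nervous system and of cell adhesion carried fetal-only regions. Cadherins and protocadherins had 17 fetal-only and 2 adult-only regions over 97 genes (4.28 and 0.504% of strong regions). Receptors for GABA and glycine, the inhibitory transmitters, had 6 and 1 over 24 genes (14.0 and 2.33%), and glutamate receptors, the excitatory ones, had 7 and 2 over 24 genes (8.43 and 2.41%). Fetal-only regions lay over the start sites of Cdh7 (chr1:109982210-109983631, 72.7), whose nearest adult HSC region was 1259 kb away, of Cdh8 (58.3; 826 kb away) and of Gabra5 (76.1). The 3 were called in fetal HPCs at 72.8, 50.8 and 89.0 and in adult HPCs at 19.6, 27.2 and 66.5. Grik2, a kainate-type glutamate receptor gene, had 2 fetal-only regions (95.6 and 90.4). The neuron marker genes Snap25 (88.7), Syt1 (62.8) and Rbfox3 (46.0) had 1 each and no adult-only one.

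Such genes are long, and gene length went with the fetal-only share. In genes under 10 kb 1.20% of strong regions were fetal-only and 1.64% adult-only, and in genes of 200 to 500 kb the shares were 3.16 and 5.39%. In the 226 genes above 500 kb the order turned, with 6.52% fetal-only and 5.16% adult-only, and 92 of these genes (40.7%) had a fetal-only region against 79 (35.0%) with an adult-only one. The median length was 90.3 kb in cadherins, 89.6 kb in GABA and glycine receptors and 259 kb in glutamate receptors, against 17.3 kb over all genes. Genes of 50 to 200 kb, the class that holds the cadherin median and the GABA and glycine median, had 2.12% fetal-only and 3.93% adult-only regions. The families were not compared with genes of matched length, so the part of length was not tested. Olfactory receptors are short (median 0.95 kb) and stand in clusters. They had 12 fetal-only and 5 adult-only counts over 1110 genes (8.33 and 3.47% of their strong counts). A region by several neighbours was counted once for each, so fewer separate regions may stand behind these counts. Reads in such near-identical families may be placed on the wrong copy, which was not tested.

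Collagens had 3 fetal-only and 8 adult-only regions over 44 genes (2.43 and 6.48%). Solute carriers had 16 and 31 over 375 genes (1.81 and 3.50%), near the 2.06 and 3.12% over all genes. The collagen regions included 2 in Col27a1 (701 and 100.3), 2 in Col4a2, a basement membrane collagen gene (207 and 116), and 1 in Col4a6 (324). Slc8a1, a sodium-calcium exchanger gene, had 2 adult-only regions (494 and 344). Zinc finger genes named Zfp had 8 and 13 over 397 genes (1.08 and 1.75%), both below the shares over all genes. Hox genes had 1 fetal-only region, counted for Hoxc10 and Hoxc11 alike (52.1), and no adult-only one.

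Some genes collected several list-specific regions. Csmd1, a complement-control protein gene, had 6 fetal-only regions, Cntnap5a and the receptor phosphatase gene Ptprt had 5 each, and Cntnap5c and the calcium channel subunit gene Cacna2d3 had 4 each. Cntnap5a had no strong region in adult HSCs, and all 5 in fetal HSCs were fetal-only. On the adult side Zfhx3, a homeobox transcription factor gene, Arhgap26 and Fhit had 5 each, and Ablim1 had 4. In all, 15 genes had 3 or more fetal-only regions and 28 had 3 or more adult-only regions. Most of these genes were long, but Gem, a small GTPase gene of 10.5 kb, had 3 adult-only regions (153 to 249).

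Runs of at least 3 consecutive strong regions of 1 class with gaps under 50 kb were rare. Fetal HSCs had 4 such runs with 12 regions, in Plpp4 (chr7:129293122-129339896, 46.8 kb), by Plppr5 and Snx7 (93.0 kb) and at 2 places without a gene. None of these 12 regions was called in P14 HSCs, and 11 were called in fetal HPCs. Adult HSCs had 6 runs with 18 regions, among them Gem (chr4:11705869-11713819, 7.95 kb), one by Atic and the fibronectin gene Fn1, and one by the chemokine genes Ccl5 and Ccl9 (chr11:83534317-83569633, 35.3 kb). The Ccl5 and Ccl9 run was called whole in adult HPCs and in P14 HSCs, and the Gem run had 1 region in P14 HSCs and none in either HPC list.

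At promoters few windows were called at 1 age alone, and those of adult HSCs more often held the IRF motif. Of 21044 RefSeq promoter windows 12713 (60.4%) overlapped a region of any strength in both lists, 441 (2.10%) in fetal HSCs alone, 347 (1.65%) in adult HSCs alone and 7543 in neither. GC content had a median of 62.0% in windows called in both, 57.7% in fetal-alone, 54.7% in adult-alone and 47.3% in uncalled windows. The ratio of observed to expected CG was 0.768, 0.447, 0.367 and 0.190 in the same order. Windows called at 1 age alone thus lay between those called at both ages and those called at neither.

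The IRF motif, the site type bound by interferon regulatory factors, was held by 33 of the 347 adult-alone windows (9.51%; 6.64 to 13.1) and by 6 of the 441 fetal-alone windows (1.36%; 0.501 to 2.94). It was held by 2.86% of windows called in both, 4.08% of windows called in neither and 3.38% of all windows. The AP-1 motif was held by 14.4% of adult-alone windows (10.9 to 18.6) and 7.71% of fetal-alone windows (5.40 to 10.6). It was held by 4.28% of windows in both, 11.3% in neither and 7.04% of all windows. The ETS motif CCGGAAG, common in broadly used promoters, was held by 17.5% of windows called in both, 5.90% of fetal-alone and 3.17% of adult-alone windows. The intervals of the 2 ages did not overlap for the IRF and AP-1 motifs and overlapped for ETS. A longer list of motifs was searched, most of it is not reported here, and no test was run. Of windows overlapped by a strong list-specific region, 7 of 22 adult-only and 0 of 34 fetal-only ones held the AP-1 motif. The RUNX motif TGTGGTT was held by 4 and 0 of them, and the E-box motif CAGCTG by 7 and 11. Some genes have several windows, and these windows belong to 20 genes on the adult and 29 on the fetal side.

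The 32 genes behind the adult-alone windows with an IRF motif were led by Sv2b, a synaptic vesicle gene (368), Usp49, a deubiquitinase gene (220), and Slc26a4, an anion exchanger gene (185). Genes that interferon induces were among them, and those named here were chosen after their values were seen. They included Oas3 (122; region chr5:120777513-120777930), Isg15, a ubiquitin-like antiviral protein gene (75.7), Ifi206 (51.3), Tgtp2 (46.5), Slfn8 (45.6), Ifit3 (34.7), Ifi207 (34.7), Ifi203 (22.3) and Ifi208 (11.9). The receptor and cytokine genes Slamf8 (169), Tnfsf13b (96.2) and Tlr6 (34.7) were also among them. Most of these regions were weak, and the Ifi, Tgtp and Slfn genes stand in clusters of near-identical copies, so that reads may be placed on the wrong copy. Of the 32 promoter windows 17 overlapped a region in P14 HSCs, 10 in fetal HPCs, 18, 23 and 16 in HPCs of P7, P14 and P21, and 17 in adult HPCs. The 6 fetal-alone genes with the motif were Gm3173, Sst, Kcnab1, Sptlc3, Asb5 and Ranbp3l.

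The Isg15 promoter window was called after birth alone. It overlapped a region in adult HSCs (75.7), P14 HSCs (46.7), and HPCs of P7 (29.9), P14 (32.2), P21 (14.1) and 8 weeks (51.0), and in neither fetal list. A region beside the window is not counted, here or for the promoters below. Wild-type lists of P7 had a region over the window in HSCs at 34.0 and in HPCs at 28.7, and neither list of mice labelled as Ifnar knockouts had one. Other promoters with the IRF motif varied. Knockout HPCs had that of Oas3 at 58.9 (wild type 81.4), and knockout HSCs and HPCs had that of Slfn8 at 25.9 and 48.2. That of Ifit3 was called in wild-type HPCs (32.1) and in neither knockout list. The knockout lists were shorter, with 42459 against 45615 regions in HSCs and 58567 against 66044 in HPCs. Dependence on the receptor was not tested. The adult HSC value of Isg15 lay below the limit for strong regions of its list. Of the 21 genes of the interferon list with a promoter window, 17 were called in fetal HSCs and 21 in adult HSCs, and the 4 called in adult HSCs alone were Isg15, Ifit3, Oas3 and Oasl2. Most interferon-stimulated promoters were thus called at both ages.

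The definition of list-specific regions used the HSC lists alone, and by the names of the lists the HPC lists come from other libraries. As 3 of the adult HSC libraries name the P14 or P21 HPC list, this rests on the names alone. Strong fetal-only HSC regions were called in 83.7% of cases in fetal HPCs (81.7 to 85.5) and in 44.7% in adult HPCs. Strong adult-only HSC regions were called in 75.1% of cases in adult HPCs and in 38.2% in fetal HPCs. Shared strong regions were called in 88.9 to 97.2% of cases in each of the 6 other lists. Progenitors of the same age thus had most of the strong regions by which the stem cell lists differed, and progenitors of the other age had fewer. With weaker regions included the same-age shares were lower, as given at the end.

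Calls in the 2 HPC lists ran with age in both directions. Of the 1556 fetal-only regions 674 (43.3%) were called in fetal HPCs and not in adult HPCs, 67 (4.31%) the other way, 628 in both and 187 in neither. Of the 2024 adult-only regions 847 (41.8%) were called in adult HPCs and not in fetal HPCs, 101 (4.99%) the other way, 673 in both and 403 in neither. Among shared strong regions of the fetal list 92.9% were called in both HPC lists, 1895 (4.31%) in fetal HPCs alone and 736 (1.68%) in adult HPCs alone. No other list of a fetal or adult stem cell was at hand, so the share that lists of 1 age would show against each other was not measured.

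**Figure D5:**
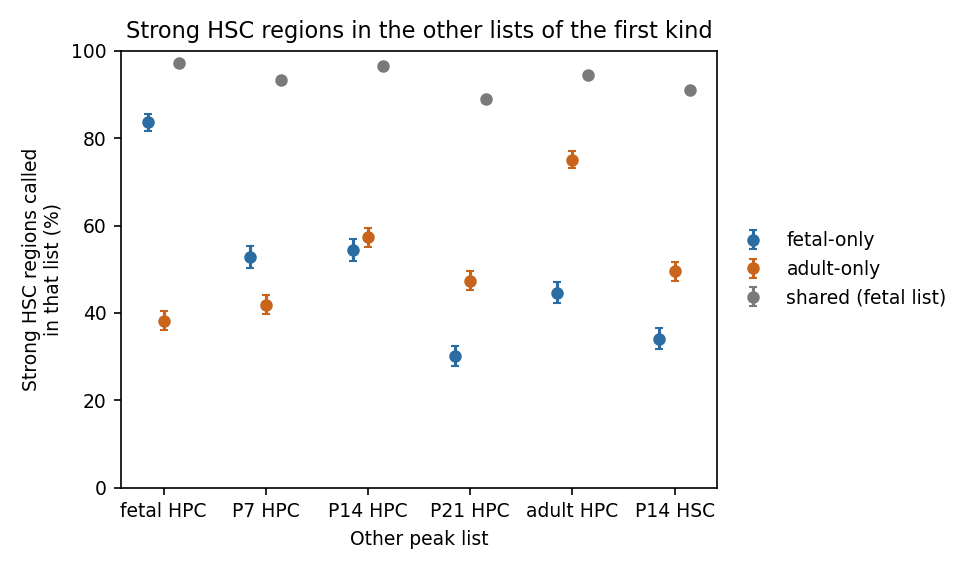
Share of strong fetal-only, adult-only and shared HSC regions (vertical axis, percent) called in each of the 6 other lists of HSCs and HPCs (horizontal axis), with 95% intervals for counting error. Fetal-only regions are called most in fetal HPCs (83.7%) and adult-only regions most in adult HPCs (75.1%), and shared regions lie between 88.9 and 97.2%.

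The ages between showed no even passage from one pattern to the other. Fetal-only regions were called in 52.8, 54.5 and 30.2% of cases in HPCs of P7, P14 and P21 and in 34.1% in P14 HSCs. Adult-only regions were called in 41.8, 57.4 and 47.4% of cases in HPCs of these ages and in 49.5% in P14 HSCs. P14 HPCs had the highest of the 3 shares for both classes, and their list was the longest of the series. None of the libraries of HPCs at P14 and P21 or of HSCs at P14 names its own group's list.

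Age-concordant regions are those called in the HPC list of the same age and not of the other. Their fetal and adult shares lay farther apart than those above in P14 HPCs, P21 HPCs and P14 HSCs, and closer together in P7 HPCs. The group is defined by absence from an HPC list, which may by itself lower its shares in the other lists. The 674 fetal ones were called in 38.7, 33.2 and 10.4% of cases in HPCs of P7, P14 and P21 and in 18.7% in P14 HSCs. The 847 adult ones were called in 34.8, 57.5 and 45.9% of cases in the same HPC lists and in 49.7% in P14 HSCs. Fetal age-concordant regions were remote, with 64.1% (414 of 646) more than 100 kb from a start site and a median distance of 203 kb, against 40.2% of fetal-only regions called in both HPC lists. On the adult side the corresponding shares were 35.7 and 33.7%. Their intervals overlapped (32.4 to 39.1 and 30.04 to 37.5%), whereas those of the fetal side did not (60.3 to 67.8 and 36.3 to 44.2%). Regions called in neither HPC list lay beyond 100 kb in 90 of 180 cases on the fetal side (42.5 to 57.5%) and in 43.8% on the adult side (38.8 to 48.9).

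At the extremes, 111 fetal-only regions (7.13%) were called in none of the 6 other lists and 191 (12.3%) in all 6, and 257 adult-only regions (12.7%) were called in none and 299 (14.8%) in all 6. Among shared strong regions of the fetal list 79.7% were in all 6. By chromosome the fetal-only share of strong regions ran from 1.69% on chromosome 19 to 4.64% on chromosome 8, and the adult-only share from 3.07% on chromosome 7 to 5.89% on chromosome 16. The X chromosome held 1.48% of fetal-only (23), 2.42% of adult-only (49), and 2.60 and 2.64% of shared strong regions. Of 1005 microRNA hairpin genes 17 (1.69%) had a strong fetal-only region within 10 kb, among them Mir196a-2, Mir9-2, Mir137 and the pair Mir15b and Mir16-2, and 21 (2.09%) an adult-only one, among them Mir140, Mir26a-1 and the pair Mir29a and Mir29b-1. The Mir29a and Mir29b-1 region (100.02) was the only region that either HSC list had within 10 kb of the pair.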

How the data were processed

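ATAC-seq peaks of fetal HSCs (3 libraries) and adult HSCs (5) were compared, and the 6 other lists of HSCs and HPCs served for calls in other libraries. Per the submitters' processing notes the authors used Bowtie2 and MACS2 on mm10 (GRCm38); the sources used here give no versions or settings. Each deposited peak carries the authors' −log10 p and fold enrichment, and the files hold no read counts, so depth is unknown. The −log10 p ranked regions within a list.

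Peaks were merged with Python 3.11.15, pandas 2.3.3 and numpy 2.4.6, and intervals came from scipy 1.17.1. The overlap step was checked on lists with a known answer. Genes and promoter windows came from RefSeq tables of GRCm38.p6, which hold no start sites for chromosome 18. A genome sequence was not used here, so motifs were searched in promoter windows alone. Regions named in each direction were the 12 strongest near a gene, the 6 strongest at a gene end, the 8 strongest age-concordant ones, the 5 genes with most regions, list members differing by 2 or more regions, and 14 genes named whatever their values. List members with 1 strong region, members of families and the 15 strongest regions of any place were named after their values were seen. The comparison, its gene lists and its named genes were chosen with earlier results of these data known. A few genes that the rule names are not reported here. Alternatives changed the strength limit, the overlap, the region width, the list length and the gene window.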

Additional observations from a re-analysis of the deposited data

Results flagged for a closer look

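Some list-specific regions ran against age in the progenitor lists. Of the strong fetal-only HSC regions 67 were called in adult HPCs and not in fetal HPCs, and of the strong adult-only HSC regions 101 were called in fetal HPCs and not in adult HPCs. Each count stands against the opposite and larger count of its class (674 and 847), and the difference was not tested.

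The Y chromosome lies outside the compared chromosomes, and the fetal HSC list had 18 regions on it and the adult HSC list 15. The sources used here do not give the sex of the animals, and these counts were not compared further.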

How the results depend on the processing

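The lists hold no depth, so an uncalled region cannot be told apart from one below detection, and the list with 5 libraries was the stronger one. No paired analysis was possible because the libraries of each group were pooled into 1 list, and leaving out a library was not possible for the same reason.

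With the upper 25% of each list in place of 50%, 143 fetal-only and 329 adult-only regions remained against 1556 and 2024, and the adult minus fetal difference of the list-specific share was 0.843 in place of 1.11 percentage points. The fetal-only share at a gene end was then 9.79% in place of 5.72%, fetal HPCs had 97.2% and P14 HSCs 25.2% of fetal-only regions, and adult HPCs had 86.0% and P14 HSCs 58.4% of adult-only regions. With all regions the counts were 20417 and 18813 and the difference reversed to -1.41 percentage points. Fetal HPCs then had 42.5% and P14 HSCs 25.9% of fetal-only regions, adult HPCs had 47.2% and P14 HSCs 30.1% of adult-only regions, and 6.04% of adult-only regions lay at a gene end in place of 3.46%. The cause of the reversal was not tested.

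With windows of 500 bp around summits, 13.5% of fetal-only and 10.9% of adult-only regions lay at a gene end, and fetal HPCs had 80.9% and P14 HSCs 38.3% of fetal-only regions. With a gene end taken as 5 kb the shares were 13.9 and 14.6%. Of 56 values of the main comparisons under an alternative, 34 moved by less than their interval or by less than 1.5 times, 21 moved by more and 1 reversed.

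Of 64 values of gene lists under an alternative, 17 were classed as little or not changed, 39 as moved and 8 as reversed. The reversed ones follow. Adult-only minus fetal-only regions went from -1 to 2 (50 kb) and 4 (all regions) in HSC surface and niche genes. With all regions the difference went from 1 to -1 in lymphoid, from 3 to -9 in myeloid, from -1 to 13 in erythroid and megakaryocytic, from 1 to -2 in macrophage and from 5 to -3 in Zfp genes, and from 478 to -67 over all genes.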
